A study of Mus musculus with 7 samples.

Results

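The hypoxia-inducible genes examined here were 10 mouse genes of the oxygen-sensing pathway, namely Hif1a, Epas1, Egln1, Egln3, Vegfa, Adm, Bnip3, Ndrg1, Ankrd37 and P4ha1, of 45616 genes or unnamed transcripts on the array. They were found as the probes whose transcript accession belongs to one of these genes, which gave 14 probes. They were chosen by their measured levels, which moved together between replicates 1 and 2 and the other arrays, so that contrast is described without a test. MPE, a polysaccharide extract of Maidong, was given to MIN6 cells for 3 days on 4 arrays (replicates 1 to 4), and phosphate-buffered saline as vehicle on 3 arrays (replicates 1 to 3). MIN6 is an insulin-producing line derived from mouse beta cells, and per the labels the cells were between passage 20 and 30. The labels list MPE concentrations up to 50 μg/mL without giving the one used for the arrays. Separate cultures are not stated for the replicates, and the spread that the p-values rest on may therefore be technical.

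Cells sense oxygen through HIF, a transcription factor made of an oxygen-regulated alpha subunit and a constant partner. When oxygen is present, prolyl hydroxylases of the EGLN family mark the alpha subunit for breakdown by the VHL ubiquitin ligase. When oxygen is short, the alpha subunit persists, enters the nucleus and raises genes for blood supply, glycolysis, mitophagy and collagen hydroxylation. Beta cells consume much oxygen when they secrete insulin, and in them sustained HIF activity is known to shift glucose use toward glycolysis.

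HIF binds a short core element, ACGTG or GCGTG, in the genes it raises. RefSeq promoter sequences (GRCm38.p6) matched 8 of the 10 genes by symbol, with 9 promoters because Vegfa had a pair of them. In the 250 bases before the start, searched on both strands with overlapping matches counted separately, 8 of the 9 promoters held the core element, against 38.6% of all 32851 promoters in the table. Across all promoters, ACGTG was in 16.6% and GCGTG in 28.2%. Both forms contain CG, and the 9 windows had a GC content of 50.8% to 86%. Promoters of like GC content were not compared, and the genes belong to the hypoxia pathway. No enrichment was tested. The 4 promoters shown are those of the genes with the largest difference between replicates 1 and 2 and the rest among genes with 1 promoter (Adm, Ankrd37 and Egln1) and of Bnip3, which had the most matches. Each runs 5′ to 3′ on the gene's own strand and ends at the base before the start, with the core element on either strand in capitals.
Adm (chr7:110627407-110627656, plus strand): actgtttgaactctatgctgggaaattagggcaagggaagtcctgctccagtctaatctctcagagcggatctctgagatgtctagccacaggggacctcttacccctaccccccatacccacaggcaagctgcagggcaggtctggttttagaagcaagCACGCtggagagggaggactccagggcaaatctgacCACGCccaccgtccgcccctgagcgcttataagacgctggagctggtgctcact
Ankrd37 (chr8:45999851-46000100, minus strand): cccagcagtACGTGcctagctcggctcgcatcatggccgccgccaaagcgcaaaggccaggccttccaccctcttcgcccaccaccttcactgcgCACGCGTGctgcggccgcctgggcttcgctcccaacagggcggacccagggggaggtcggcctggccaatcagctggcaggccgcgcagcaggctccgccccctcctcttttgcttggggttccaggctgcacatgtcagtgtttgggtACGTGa
Egln1 (chr8:124949255-124949504, minus strand): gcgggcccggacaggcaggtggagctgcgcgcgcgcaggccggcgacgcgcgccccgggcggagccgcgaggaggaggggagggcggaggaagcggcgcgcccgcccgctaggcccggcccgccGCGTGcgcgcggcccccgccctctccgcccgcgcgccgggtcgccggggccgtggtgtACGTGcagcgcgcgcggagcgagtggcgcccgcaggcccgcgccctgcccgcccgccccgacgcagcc
Bnip3 (chr7:138909507-138909756, minus strand): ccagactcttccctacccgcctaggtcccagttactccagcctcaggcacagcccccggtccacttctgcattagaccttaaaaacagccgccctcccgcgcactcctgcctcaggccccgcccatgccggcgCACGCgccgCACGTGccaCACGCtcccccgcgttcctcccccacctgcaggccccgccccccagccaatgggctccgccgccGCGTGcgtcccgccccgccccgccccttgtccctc
The Adm promoter held GCGTG 2 times, both on the reverse strand, at 90 and 54 bases before the start. In Ankrd37 the element occurred 4 times, the nearest 6 bases before the start, and its pair at 155 and 152 bases overlaps. Egln1 carried GCGTG at 126 bases and ACGTG at 68 bases. Bnip3 had 5 matches, of which those at 108 and 107 bases are the 2 strands of 1 palindrome. The other promoters with a match were those of Hif1a, P4ha1 and Egln3 and the second of Vegfa. The first Vegfa promoter (chr17:46032378-46032627, minus strand) held 0 matches. The second window (chr17:46025164-46025413, minus strand) lies downstream of the first start. Its 2 matches may therefore fall in transcribed sequence of the gene. A match is a description of the letters and not a measured binding site.

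All arrays lay on 1 slide, with MPE in its second row and vehicle in its first, so the effects of treatment and of slide row cannot be told apart. Replicates 1 and 2 of each treatment lay in slide columns 1 and 2, and the other arrays (MPE replicates 3 and 4, vehicle replicate 3) in columns 3 and 4, so replicate number and slide position cannot be told apart either. Of 56605 probes, 27944 to 28514 were detected well above background on MPE arrays and 29501 to 30122 on vehicle arrays. Pairs of arrays correlated across genes with r of 0.991 to 0.997. Among 16 beta-cell markers, 15 were tested, all 15 well above background on every array. The glucose transporter gene Slc2a2 was not tested. The insulin gene Ins1 had a log2 difference of -0.15 (SE 0.11) between MPE and vehicle, and Ins2 one of -0.18 (SE 0.10), neither past the threshold (limma adjusted p = 1.00 for each). Of 16 stromal, endothelial and immune markers 6 were tested (Col1a2, Acta2, Tagln, Esam, Cd68 and Itgam), all 6 well above background on every array. Pecam1, Cdh5, Ptprc, Col1a1 and Pdgfra were among those that did not pass the filter. Of 8 markers of other islet cells 5 were tested (Gcg, Sst, Ppy, Ghrl and Irx2), all 5 also well above background on every array.

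Levels are log2 intensities relative to the 75th percentile of the array. They were used to sort probes and genes by brightness, but not to rank the transcript amounts of different genes. A gene was tested when a probe was well above background on at least 3 arrays, and 8 of the 10 genes were, all of them well above background on all 7 arrays. The comparison of MPE with vehicle asks whether the extract went with a different level of these transcripts. None of the 8 tested genes passed the limma test adjusted over all 22060 genes. Their log2 differences ran from -0.07 for Ankrd37 to 0.05 for Vegfa, with 4 above 0, 4 below 0 and a median of -0.00, against a median of -0.02 over all genes. At an adjusted p under 0.05, 0.00453% of all genes were called higher with MPE and 0.0% lower. At an unadjusted limma p under 0.05, 0 of the 8 passed, against 4.11% of all genes, and their smallest unadjusted p was 0.526. The MPE and vehicle arrays overlapped for each of the 8, while 4.53% of all genes had arrays that did not overlap.

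**Figure D1:**
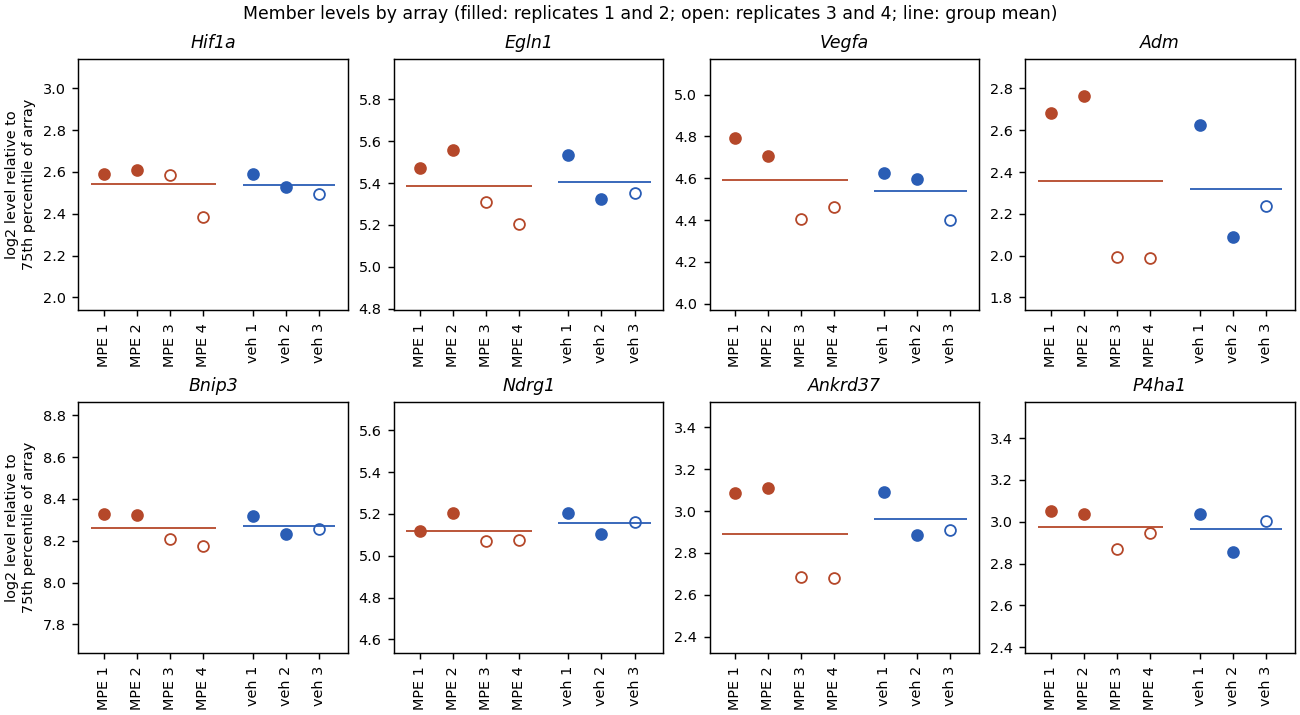
Log2 level of each tested gene on each array, relative to the array's 75th percentile; MPE arrays are red and on the left, vehicle arrays blue and on the right, filled points are replicates 1 and 2, open points replicates 3 and 4, and lines are group means. Every panel spans the same number of log2 units, and Adm spreads the most, from 1.99 to 2.76.

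In the oxygen-sensing machinery, Hif1a encodes the oxygen-regulated alpha subunit of HIF-1. Its log2 levels were 2.59, 2.61, 2.58 and 2.39 on MPE arrays 1 to 4, against 2.59, 2.53 and 2.49 on vehicle arrays 1 to 3. Only MPE replicate 4 lay apart, below the other 6. Its MPE level was 1.00 times the vehicle level (95% interval 0.893 to 1.13, limma adjusted p = 1.00). Egln1, the main hydroxylase that marks HIF-1 alpha for breakdown, had 5.47, 5.56, 5.31 and 5.20 on the MPE arrays, against 5.53, 5.32 and 5.35 on the vehicle arrays. The lowest 2 values were MPE replicates 4 and 3, and the groups overlapped across most of their range. The Egln1 ratio was 0.988 (0.834 to 1.17, limma adjusted p = 1.00).

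The other alpha subunit gene Epas1, which encodes HIF-2 alpha, and the inducible hydroxylase gene Egln3 had 1 probe each, not well above background on any of the 7 arrays. Epas1 read 4.73 to 5.32 intensity units on MPE arrays and 2.87 to 3.53 on vehicle arrays. Egln3 read 4.63 to 5.93 on MPE arrays and 2.78 to 3.44 on vehicle arrays. Detected probes started at 20.6 to 24.4 units on MPE arrays and at 12.6 to 15.5 on vehicle arrays. Both genes thus lay below detection in each group, and no fold is given. Without the filter on dim probes both were called higher with MPE (limma adjusted p = 0.000398 for Epas1 and 0.00391 for Egln3), as were 9619 of 45478 genes in that setting.

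Of the secreted vascular factors, Vegfa, which drives vessel growth, had log2 levels of 4.79, 4.71, 4.41 and 4.46 on the MPE arrays, against 4.63, 4.60 and 4.40 on the vehicle arrays. MPE replicates 1 and 2 were the highest, and vehicle replicate 3 was the lowest. The ratio of MPE to vehicle was 1.04 (95% interval 0.857 to 1.25, limma adjusted p = 1.00). Adm, the precursor of the vasodilator peptide adrenomedullin, had 2.68, 2.76, 1.99 and 1.99 on the MPE arrays, against 2.63, 2.09 and 2.24 on the vehicle arrays. The MPE arrays split into a high and a low pair, and vehicle replicate 1 stood with the high pair. Adm averaged 2.36 ± 0.42 with MPE (SD, n = 4) and 2.32 ± 0.28 with vehicle (SD, n = 3). Its ratio of 1.03 had the widest interval of the 8 genes, 0.685 to 1.54 (limma adjusted p = 1.00).

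Of the genes that act inside the cell, Ankrd37, an ankyrin-repeat gene known as a direct HIF target, had 3.09, 3.11, 2.68 and 2.68 on the MPE arrays, against 3.09, 2.89 and 2.91 on the vehicle arrays. The same high and low pairs appeared, with the vehicle arrays inside the MPE range. The ratio was 0.951 (95% interval 0.759 to 1.19, limma adjusted p = 1.00). Bnip3, a mitophagy receptor on the outer mitochondrial membrane, had 8.33, 8.32, 8.21 and 8.18 on the MPE arrays, against 8.32, 8.23 and 8.26 on the vehicle arrays. It moved little, spanning 0.15 log2 units over all arrays, and its ratio was 0.993 (0.899 to 1.10). P4ha1, the catalytic subunit of collagen prolyl 4-hydroxylase, ranged from 2.87 to 3.05 on MPE arrays and from 2.86 to 3.04 on vehicle arrays, with a ratio of 1.01 (0.895 to 1.14). Ndrg1, a stress-responsive gene induced by hypoxia, ranged from 5.07 to 5.21 on MPE arrays and from 5.10 to 5.21 on vehicle arrays, with a ratio of 0.974 (0.886 to 1.07). The intervals of the 7 genes other than Adm all lay between 0.759 and 1.25.

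**Figure D2:**
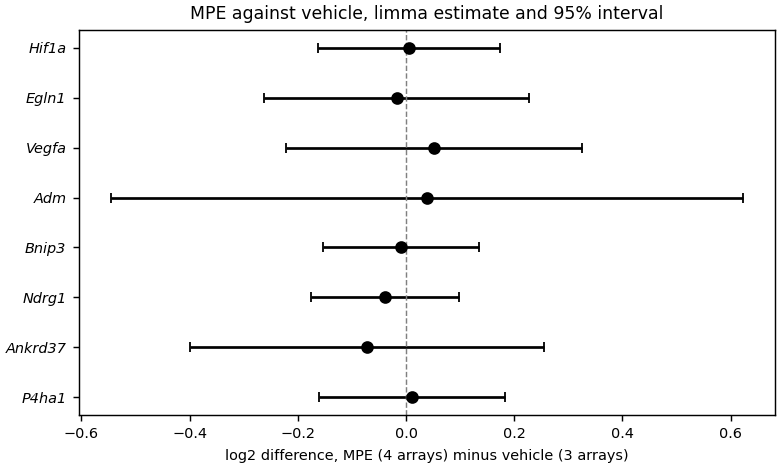
Log2 difference of MPE (4 arrays) minus vehicle (3 arrays) for the 8 tested genes, with limma's 95% interval as bars. Every interval includes 0, and that of Adm runs from -0.55 to 0.62.

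Within slide columns the differences between MPE and vehicle were uneven. In columns 1, 2 and 4 the Adm log2 difference was 0.06, 0.67 and -0.25, and blocking on slide column gave 0.16. For Ankrd37 these were -0.00, 0.23 and -0.23, with -0.00 under the block. Vegfa had 0.16, 0.11 and 0.06, with 0.11 under the block. Column 3 held MPE replicate 3 only. Replicates 1 and 2 made up 2 of the 4 MPE arrays and 2 of the 3 vehicle arrays. Within replicates 1 and 2 the Adm difference was 0.36, and among the other arrays it was -0.25, while Ankrd37 had 0.11 and -0.23 and Egln1 had 0.09 and -0.10. With the split into replicates 1 and 2 and the rest as a term in the fit, none of the 8 genes passed either, and their smallest limma adjusted p was 0.912.

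Between replicates 1 and 2 and the other arrays the genes were chosen for moving together, and the following values describe that choice. The difference used is the mean of the differences within MPE and within vehicle. All 8 tested genes were higher in replicates 1 and 2 on this scale, by 0.04 for P4ha1 to 0.43 for Adm, with a median of 0.13 against 0.02 over all genes, of which 53.7% were above 0. Bnip3 went below 0 with quantile normalization (-0.06), with normexp background correction (-0.05) and in the authors' value table (-0.05), and Ndrg1 stood at -0.00 with quantile normalization and in that table. P4ha1 stood at -0.01 without vehicle replicate 1. Without vehicle replicate 3, which leaves the MPE arrays alone to set the difference, Adm stood at 0.73 and Ankrd37 at 0.42. Adm was 1.34-fold higher in replicates 1 and 2, Vegfa 1.20-fold, Ankrd37 1.19-fold and Egln1 1.13-fold. Hif1a, Bnip3, Ndrg1 and P4ha1 were 1.03-fold to 1.06-fold higher. Adm exceeded 96.8% of all genes in this difference, while P4ha1 exceeded 56.1%.

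Among the MPE arrays, both replicates 1 and 2 lay above both replicates 3 and 4 for all 8 genes, as for 30.1% of all genes. That share depended on the scaling. Median scaling gave 8 of the 8 against 50.2% of all genes, the percentile over detected probes 7 against 23.1%, and quantile normalization 5 against 27.4%. The log2 differences within MPE were 0.73 for Adm, 0.42 for Ankrd37, 0.32 for Vegfa and 0.26 for Egln1, with a median of 0.20 over the 8 genes, against 0.02 over all genes. Within vehicle, both replicates 1 and 2 lay above replicate 3 for 2 genes, Hif1a and Vegfa, as for 39.7% of all genes. The vehicle differences ran from -0.06 for P4ha1 to 0.21 for Vegfa, with a median of 0.07. Whether the shift differs between MPE and vehicle was not tested.

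**Figure D3:**
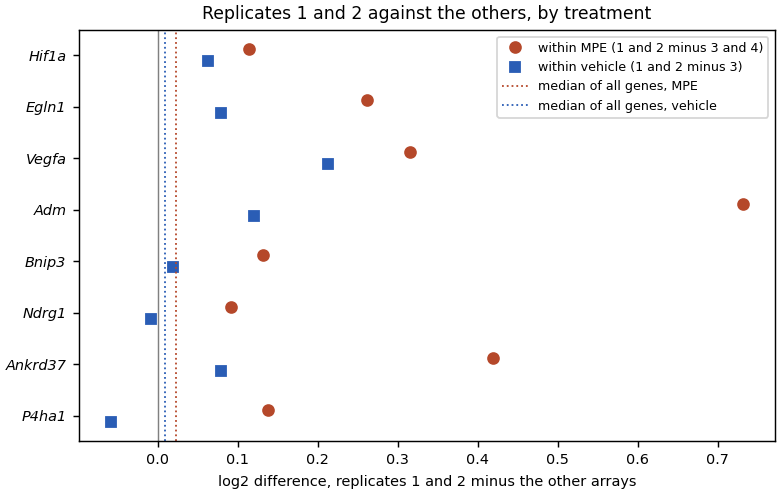
Log2 difference of replicates 1 and 2 minus the other arrays for each tested gene, within MPE (circles) and within vehicle (squares); dotted lines are the medians of all genes. The MPE points run from 0.09 to 0.73, and each lies to the right of the vehicle point of its gene.

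Vehicle replicate 2 did not follow the label split. Averaged over the 8 genes, each centred on its own mean, the level was 0.12 and 0.15 on MPE replicates 1 and 2 and -0.13 and -0.15 on MPE replicates 3 and 4. On vehicle replicates 1, 2 and 3 it was 0.11, -0.06 and -0.04. MPE replicate 2 and vehicle replicate 1 had all 8 genes above their mean, while MPE replicate 4 had 0 and vehicle replicate 2 had 1. Accordingly the 4 arrays of replicates 1 and 2 lay above the other 3 for Vegfa alone among the 8 genes, against 16.1% of all genes higher without overlap. Without vehicle replicate 2 this was so for 7 of the 8, against 20.5% of all genes, and without vehicle replicate 3 for 6 of the 8, against 21.3%. Without any one of the other 5 arrays it was 1 or 2 genes.

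The shift between replicates 1 and 2 and the rest also varied with brightness. Genes were put into 5 equal bins by mean level. In the brightest bin, which held Vegfa, Egln1, Ndrg1 and Bnip3, its median was 0.05, with 30.2% of genes higher without overlap. In the next bin, which held the other 4, it was 0.02 with 18.2%, and in the dimmest it was -0.06 with 5.26%. The part of this in the result was not tested.

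Probes of a single gene did not always move alike. The level of Vegfa given above comes from probe A_52_P638895. A second probe, A_52_P249424, had log2 levels of 2.88, 2.81, 2.48 and 2.48 on MPE arrays 1 to 4 and 2.82, 2.70 and 2.46 on vehicle arrays 1 to 3, and shifted by 0.33 between replicates 1 and 2 and the rest. Another, A_51_P482552, had 2.93, 3.05, 3.18 and 3.00 on the MPE arrays, against 3.00, 2.98 and 3.03 on the vehicle arrays, with a shift of -0.07, so it did not show the pattern of the other two. The remaining one, A_55_P2741794, was not detected above background on any array. For P4ha1, probe A_51_P458067 shifted by 0.04. Its second probe, A_65_P04309, shifted by 0.39, with levels of -0.26, -0.39, -0.80 and -0.77 on the MPE arrays and -0.24, -0.48 and -0.69 on the vehicle arrays. Replicates 1 and 2 lay above the other arrays without overlap for that probe.

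**Figure D4:**
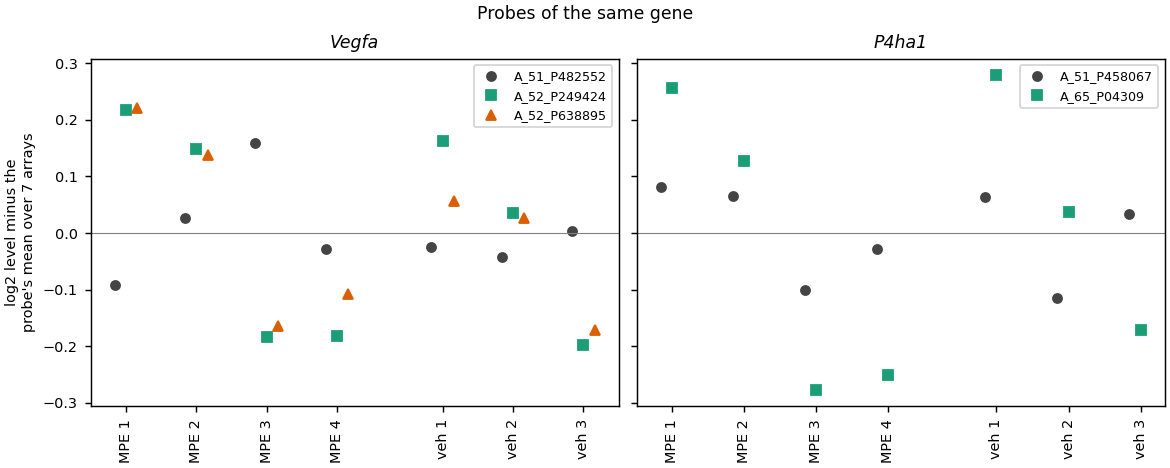
Log2 level of each detected probe minus its own mean over 7 arrays, for Vegfa (3 probes) and P4ha1 (2 probes), with MPE arrays on the left and vehicle arrays on the right. Probe A_51_P482552 of Vegfa is highest on MPE replicate 3, where the other Vegfa probes are low.

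The genes whose profile over the 7 arrays was most like the mean of the 8 were drawn from 1994 named genes that were well above background on all arrays and spanned at least 0.5 log2 units. They were Trib3, a pseudokinase of the amino-acid and ER stress response (Pearson r = 0.994 over 7 arrays), the sulfotransferase Chst1 (0.992), the fucosyltransferase Fut1 (0.979), the immediate-early transcription factor Egr1 (0.976), the protease inhibitor Serpina1a (0.971) and the circadian and hypoxia-responsive repressor Bhlhe40 (0.968). Such values are the extremes of many candidates over few arrays. Egr1 had 5.42, 5.44, 4.31 and 4.18 on the MPE arrays, against 5.43, 4.85 and 4.61 on the vehicle arrays. It was thus high on the arrays where Adm and Ankrd37 were high, and its shift of 0.86 was larger than that of any of the 8 genes. Trib3 had 4.04, 4.12, 3.46 and 3.34 on the MPE arrays, against 4.11, 3.58 and 3.68 on the vehicle arrays. Neither passed the test of MPE against vehicle (limma adjusted p = 1.00 for each).

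**Figure D5:**
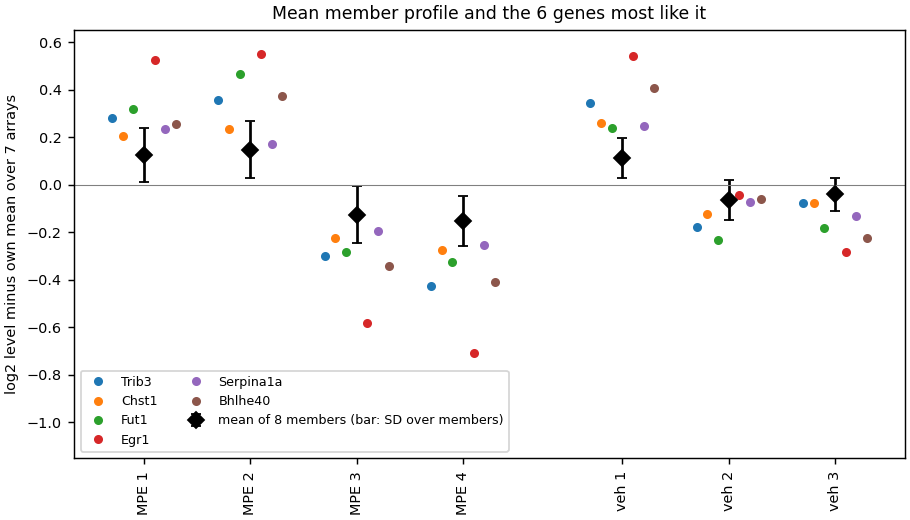
Mean log2 level of the 8 tested genes on each array, each centred on its own mean (diamonds, with the SD over genes), beside the 6 genes with the highest correlation to it; MPE arrays are on the left and vehicle arrays on the right. The mean is 0.12 and 0.15 on MPE replicates 1 and 2 and 0.11 on vehicle replicate 1, and below 0 on the other arrays.

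The wider HIF pathway was read from 6 lists with 98 other genes, of which 81 were tested. Limma called 0 of them higher and 0 lower with MPE after adjustment over all genes. Their median log2 difference was -0.03, with 33 above and 48 below 0. At an unadjusted p under 0.05 there were 2, among them the carbonic anhydrase gene Car9, a classical hypoxia marker, with a difference of -0.21 (SE 0.09, limma adjusted p = 1.00). Between replicates 1 and 2 and the rest, 17 of the 81 were higher and 3 lower without overlap, against 16.1% and 11.7% of all genes.

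The lists are given one by one as a description, and no difference between them was tested. Their counts stand beside 16.1% of all genes that were higher without overlap. That share was 30.2% in the brightest bin and 5.26% in the dimmest. By mean level, Car9 and Arnt2, named below, fell in the dimmest bin. Of 24 tested genes of HIF-driven glycolysis, 19 were higher and 5 were so without overlap, with a median shift of 0.11. The largest of those without overlap were the fructose-bisphosphate regulator Pfkfb3 (0.29), lactate dehydrogenase Ldha (0.21) and aldolase Aldoa (0.17). Among 14 genes of mitophagy, growth restraint and mitochondria, 3 were higher without overlap, namely Bhlhe40 (0.54), the cytochrome oxidase isoform Cox4i2 (0.20) and the MYC antagonist Mxi1 (0.20), with a list median of 0.07.

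In the 9 tested vascular and secreted targets the median was 0.26, and the adrenomedullin receptor partner Ramp2 (0.18) was the one gene without overlap. The others of the 20 genes on that list were not tested, among them the erythropoietin gene Epo and the VEGF receptors Flt1 and Kdr. Of 12 genes of matrix, hydroxylation and demethylation, the lysyl oxidase Loxl2 (0.24), the lysyl hydroxylase Plod1 (0.16) and the histone demethylase Kdm4b (0.08) were higher without overlap, and Plod2 (-0.21) was lower. The HIF subunits and regulators had a median of 0.03. The coactivator Crebbp (0.21), the elongin Elob (0.16) and the chaperone Hspa8 (0.15) were higher without overlap, and the HIF partner Arnt2 (-0.42) and the deacetylase Sirt1 (-0.20) were lower. In the pH and iron list of 4 tested genes, Car9 (0.21) and the transferrin receptor Tfrc (0.17) were higher without overlap.

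Genes outside the pathway also shifted between replicates 1 and 2 and the rest. Over all genes 53.7% were above 0 and 16.1% higher without overlap, and in the brightest bin 69.2% and 30.2%. Of 14 tested stress and growth genes 13 were higher in replicates 1 and 2, 7 of them without overlap, with a median of 0.21. The immediate-early genes Fos (0.87) and Egr1 (0.86) and the glutathione-degrading enzyme Chac1 (0.71), a target of the amino-acid response, led that list. Of 15 beta-cell markers 13 were higher, 6 without overlap, with a median of 0.11, Ins1 by 0.25. These markers did not all share 1 profile over the arrays. On vehicle replicate 2, Ins1 stood at 9.90, above its level on every MPE array. Neurod1 had its lowest level on that array, at 3.87. Of the 5 tested markers of other islet cells, the pancreatic polypeptide gene Ppy was higher by 1.40, while Sst was lower by -0.54 and Ghrl by -0.42. Among 6 tested stromal, endothelial and immune markers, 3 had a shift above 0 and 3 below, the median being 0.01, and Col1a2 (-0.26) and Cd68 (-0.17) were lower without overlap. The part of these genes in the shift of the hypoxia-inducible genes was not tested.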

How the data were processed

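Per the labels' protocols, 100 ng RNA per sample was labelled with Cy3 for Agilent arrays read in 1 colour. The deposited files give spot intensity from Agilent Feature Extraction, version 11.5.1.1 per the file headers and 10.5.1.1 per the submitters' processing notes. No source used here records the steps behind the deposited processed intensity. The flags deposited by the authors mark control, outlier, saturated and well-above-background spots, as other values. The authors' value table holds log2 values with a median of 4.44 in every column, so it is normalized between arrays; no source used here names the tool.

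Control spots and 611 outlier spot values were left out. Log2 processed intensities were averaged over spots of a probe, and the 75th percentile of the array was subtracted. Probes well above background on at least 3 of 7 arrays, with a value on all, were kept (28874), and each gene was represented by its brightest probe (22060 genes, 13653 with a symbol). Symbols came from a RefSeq table of GRCm38.p6, used for names only, which named 32994 of 56605 probes. MPE was compared with vehicle in limma 3.58.1 under R 4.3.3 (lmFit and eBayes, Benjamini-Hochberg over all genes). The fit was tested on simulated data. Named genes were the 10 members, Ins1 and Ins2, and up to 3 list genes per direction with non-overlapping replicates. The 6 genes of most similar profile were named as well. Beyond that, the text names Slc2a2, Neurod1, the genes that were not tested, the tested markers of other cell types and Trib3's values. Members, lists and rules were chosen with earlier results of these data known. Alternatives were other scalings, normexp, the authors' table, filters, probe choice, variance models, blocks and left-out arrays. The number of arrays limits the precision.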

Additional observations from a re-analysis of the deposited data

Results flagged for a closer look

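Hif1a on MPE replicate 4 stood apart from the other MPE arrays, at a log2 level of 2.39 against 2.58 to 2.61. The gap to the nearest array took up 88.4% of the range of the group. It was 1 of 8 genes checked on the 4 MPE arrays, and chance marks about 1 in 20 such groups. The 8 genes share these arrays and were chosen for moving together, so they are not independent groups.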

How the results depend on the processing

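None of the 8 tested genes passed the limma test of MPE against vehicle in any alternative that kept the filter on dim probes, with or without any one array; without the filter 2 of 10 did, Egln3 and Epas1. Over all genes, 1 was called, against 0 with normexp, with the filter on all 7 arrays, with a block on slide column and with the replicate block, 2 at an adjusted p under 0.1, 3 with the lowest probe and with trended robust variance, 4 with array weights and 9968 without the filter. Leaving out 1 array gave 0 to 4. At an unadjusted p under 0.05, 167 genes were higher and 740 lower, against 67 and 1328 with median scaling; the replicate block gave 412 genes higher and 1487 lower, normexp 225 and 1004, the slide column block 279 and 919, and the filter on all 7 arrays 141 and 540. Same-numbered MPE and vehicle arrays correlated by 0.25, 0.05 and 0.41 in their deviations, against -0.33 to 0.31 for differently numbered arrays. These values do not settle whether the numbers pair the samples. The labels state no pairing, so the main fit used none, and the replicate block is given as an alternative. The 7 lists of HIF pathway and stress genes had 0 calls in each alternative. The median shift of the 8 genes between replicates 1 and 2 and the rest was 0.13, and 0.0955 to 0.199 when 1 array was left out; it was 0.21 with the lowest probe of each gene, where Vegfa and P4ha1 take another probe. The Bnip3 shift reversed to -0.0553 with quantile normalization, -0.0510 with normexp and -0.0549 in the authors' table. Median scaling moved the median shift of all genes within MPE to 0.13, against 0.02, and that of the 8 genes over all arrays to 0.20. Dim signal limits Epas1 and Egln3, and the number of arrays limits the rest.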
